A study of Homo sapiens with 10 samples.

Results

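The 73 lysine and arginine rows of the tRNA tables, 44 for lysine and 29 for arginine out of 631 rows in all, were chosen by isotype name alone, with every anticodon and every numbered or chromosome-named copy included. The tables came from 10 libraries of iCLIP, a method that crosslinks RNA to a protein in living cells, pulls the protein down and sequences the attached RNA. PUS7 knockout cells that carried FLAG-tagged PUS7 (FLAG-PUS7) were set against PUS7 knockout cells without it (knockout). HEK 293T, a transformed embryonic kidney line, gave 3 FLAG-PUS7 and 3 knockout libraries at passages 20 to 25, and H9, a human embryonic stem cell line, gave 2 FLAG-PUS7 and 2 knockout libraries at passages 40 to 45. All 4 groups lack the endogenous enzyme, so no library holds PUS7 at its natural level, and the sources used here do not say whether a knockout was 1 clone. Cells received ultraviolet light of 254 nm at 200 mJ/cm2, lysates were digested with RNase I, and anti-FLAG beads were applied for 2 h at 4 °C, followed by sequencing for 50 cycles. Each replicate used 2 plates of 15 cm. Whether these were separate cultures is not stated, so p-values measure the spread between these samples, which may be technical.

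Lysine tRNAs read the codons AAA and AAG, and the lysine tRNA with anticodon TTT (UUU in RNA) is also the primer that HIV uses for reverse transcription. Arginine tRNAs fall into anticodon families that read either the CGN codons (ACG, CCG and TCG) or the codons AGA and AGG (TCT and CCT). Human precursors of Arg-TCT usually carry an intron beside the anticodon, which the tRNA splicing endonuclease removes, whereas lysine tRNAs and the other arginine tRNAs are as a rule made without one. PUS7 isomerises uridine to pseudouridine in tRNAs and in mRNAs, and the study asked about this mark on tRNA-derived fragments in stem cells.

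The deposited values are not amounts, and have the form of level numbers, the codes left when text is replaced by its place in alphabetical order. Each row was therefore scored for presence alone, a detected row being one with at least 1 read. Sequencing depth is unknown, so a row not detected cannot be taken as absent, and in bulk cultures fewer cells with a tRNA cannot be told apart from less of it per cell. Across the 631 rows, FLAG-PUS7 libraries detected 458 to 479 and knockout libraries 0 to 232. The first H9 knockout library stood apart because it had no tRNA row at all. Its 0 follows from how the levels were read, since its table supplied the codes for no reads, and the family differences are also given without it. Neither PUS7 mRNA nor markers of kidney or stem cells are measured in these tables.

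Lysine and arginine rows were detected about evenly across the FLAG-PUS7 libraries and far less often in every knockout library. In 293T, FLAG-PUS7 libraries held 61, 62 and 59 of the 73 rows, against 30, 17 and 15 in the knockout. In H9, 60 and 61 rows were detected with FLAG-PUS7, against 0 and 32 in the knockout. The groups did not overlap in either line, and neither did those of all 631 rows together, at 458 to 479 with FLAG-PUS7 against 0 to 232 in the knockout. Lysine rows, detected at 34, 34 and 32 of 44 in 293T FLAG-PUS7 libraries, had 9, 8 and 4 in the 293T knockout. Arginine rows, detected at 27, 28 and 27 of 29 in 293T FLAG-PUS7 libraries, had 21, 9 and 11 in the 293T knockout. With FLAG-PUS7, H9 libraries held 34 and 34 lysine rows and 26 and 27 arginine rows, against 0 and 21 lysine rows and 0 and 11 arginine rows in the H9 knockout. As means over 3 libraries, the lysine share was 75.8% ± 2.62 (SD) with FLAG-PUS7 and 15.9% ± 6.01 (SD) in the 293T knockout. For arginine the same means were 94.3% ± 1.99 (SD, n = 3) in 293T FLAG-PUS7 libraries and 47.1% ± 22.2 (SD, n = 3) in their knockout counterparts. The wide spread for arginine came from the first 293T knockout library, which held 21 of the 29 rows.

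**Figure D1:**
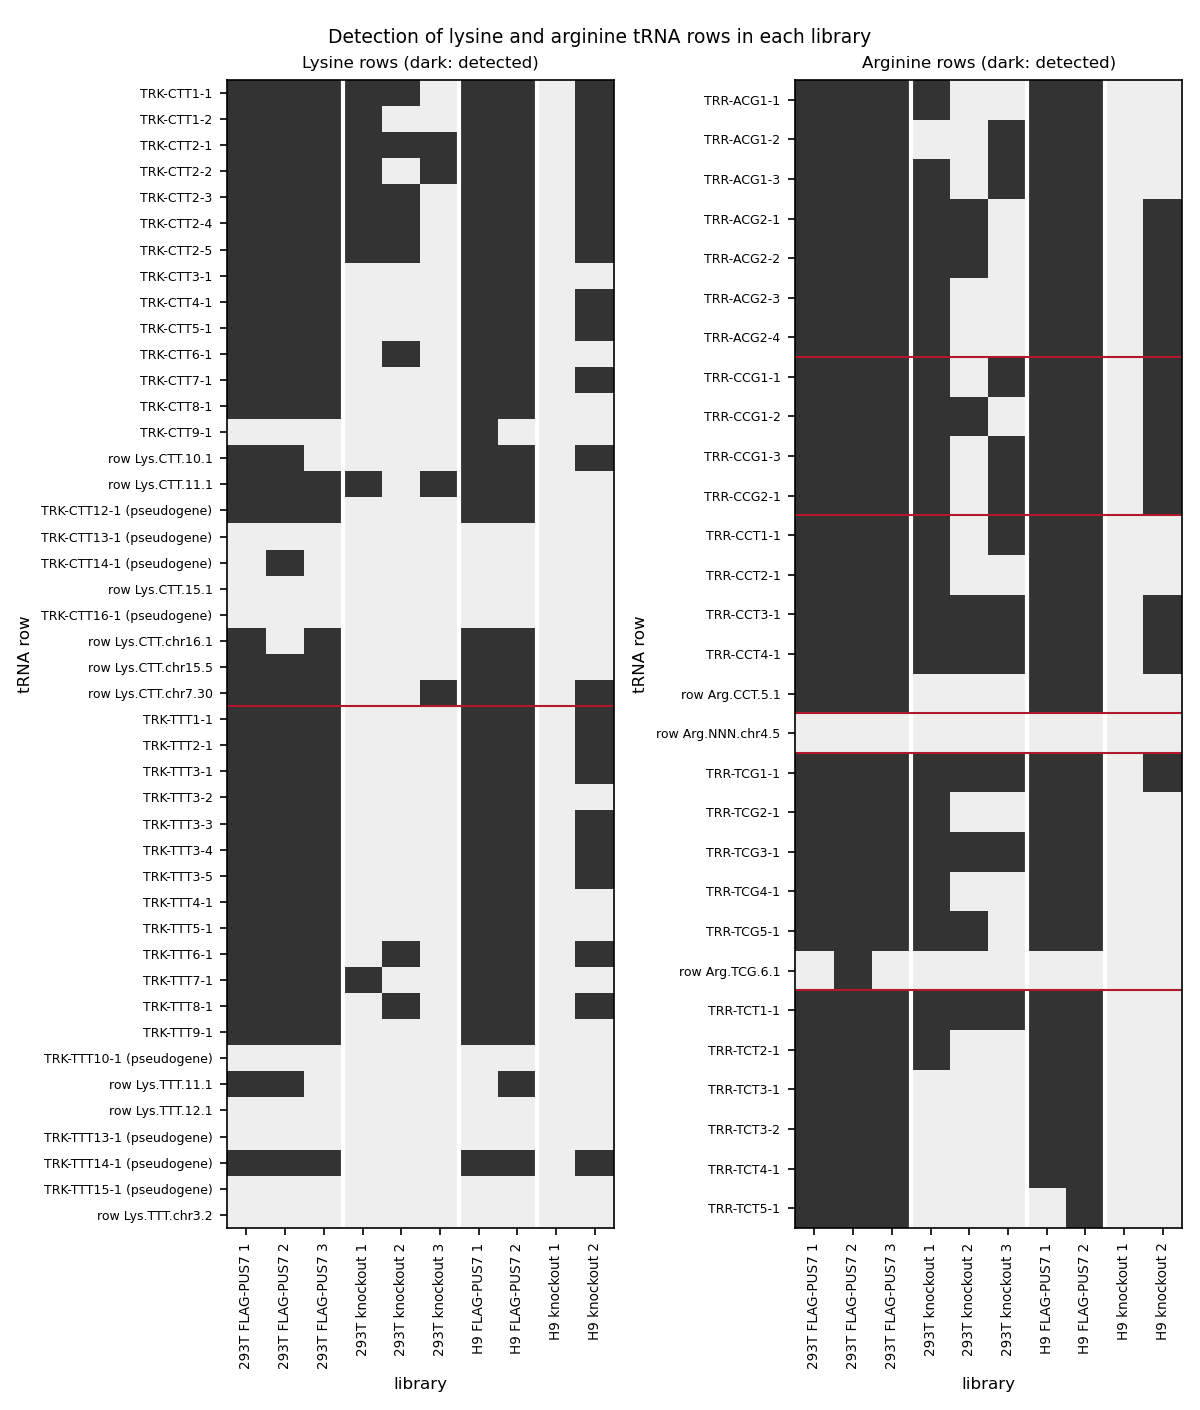
Detection of each lysine row (left) and arginine row (right) in each of the 10 libraries, where a dark cell is a detected row, a pale cell one not detected, and red lines separate anticodon families. The FLAG-PUS7 columns are dark for 57 of the 73 rows in all 5 libraries, and the first H9 knockout column is empty.

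Of the 73 rows, 53 matched a RefSeq tRNA gene, 27 for lysine and 26 for arginine, 8 matched a lysine tRNA pseudogene and 12 matched no gene symbol. Each FLAG-PUS7 library detected 52 of the 53 tRNA genes, or 98.1%, close to the 96.9% to 97.7% of the 355 other tRNA genes. The gene missed differed: TRK-CTT9-1 (chromosome 5, 26198430 to 26198502) was detected in the first H9 FLAG-PUS7 library alone, and TRR-TCT5-1 (chromosome 6, 27562184 to 27562270) was missed by that one alone of the 5. Neither was seen in any knockout library. Among the 8 pseudogenes, TRK-TTT14-1 and TRK-CTT12-1 were present in every FLAG-PUS7 library, and TRK-CTT14-1 only in the second 293T FLAG-PUS7 library. The pseudogenes TRK-CTT13-1, TRK-CTT16-1, TRK-TTT10-1, TRK-TTT13-1 and TRK-TTT15-1 were detected in no library, as were 4 unmatched rows, 3 of lysine and the single arginine row without an assigned anticodon. TRK-TTT14-1 was the only pseudogene seen in a knockout library, the second of H9. FLAG-PUS7 libraries thus held nearly all annotated genes and 2 or 3 of the 8 pseudogenes, although reads of identical or near-identical copies cannot be told apart and the sources used here do not say how they were shared among copies.

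The comparison of FLAG-PUS7 with knockout asked which tRNAs were recovered with the tagged enzyme beyond the background of the pull-down. By anticodon, 5 of the 7 families with a detected row rose, against 78.9% of all 57 families tested, so the lysine and arginine count lies near the background. The median difference in the share of rows detected was 59.2 percentage points over the 7 families and 52.5 points over all 57. Without the first H9 knockout library the medians were 47.9 and 41.7 points, and 5 of the 7 families again passed. The test was an exact two-sided permutation test over the 120 assignments of the FLAG-PUS7 label within lines, adjusted by the Benjamini-Hochberg method over 57 families, with 0.0167 as the smallest p it can give. Neither line can pass alone, since the smallest p is 0.1 in 293T and 0.333 in H9.

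**Figure D2:**
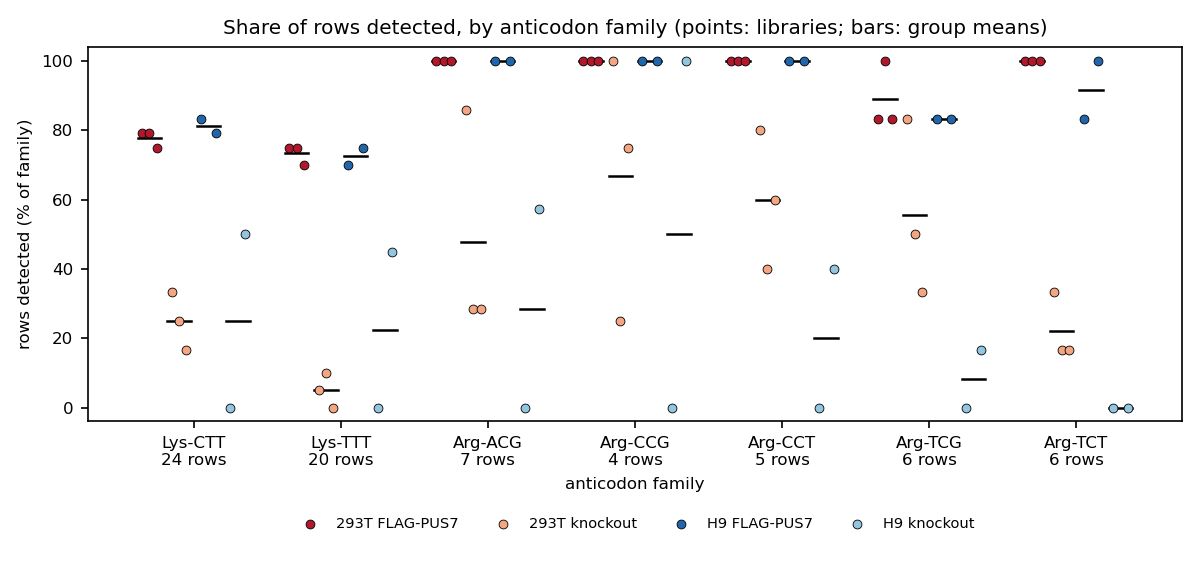
Share of rows detected (percent of the family) in each library for the 7 anticodon families, with points for libraries and bars for group means of 293T FLAG-PUS7, 293T knockout, H9 FLAG-PUS7 and H9 knockout. Arg-TCT has both H9 knockout libraries at 0%, while Arg-CCG has knockout libraries at 100%.

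Arg-TCT, the family that reads AGA, had the largest difference of the 7. Its 6 rows, all annotated genes, were detected at 6, 6 and 6 in 293T FLAG-PUS7 libraries, against 2, 1 and 1 in the 293T knockout. In H9 they were detected at 5 and 6 with FLAG-PUS7, against 0 and 0 in the knockout. The FLAG-PUS7 and knockout libraries did not overlap, as was also the case for the rows of all isotypes together. Among all 57 families 78.9% rose, and those without overlap were not counted. The share of Arg-TCT rows was 84.7 points higher with FLAG-PUS7 (exact permutation test, adjusted p = 0.0221), by 77.8 points in 293T and 91.7 points in H9. It was also 84.7 points without the first H9 knockout library (exact permutation test, adjusted p = 0.0232), because the second H9 knockout library held no Arg-TCT row either. Neither trait was particular to Arg-TCT. Several families of other isotypes had larger differences, up to 100 points, and likewise no row in either H9 knockout library.

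Single Arg-TCT genes differed in the knockout. TRR-TCT1-1 (chromosome 1, 93847573 to 93847657) was present in every FLAG-PUS7 library and in all 3 293T knockout libraries, but in neither H9 knockout library. TRR-TCT2-1 (chromosome 17, 8120925 to 8121012) was present in every FLAG-PUS7 library and, of the knockout libraries, in the first of 293T only. TRR-TCT3-1 (chromosome 9, 128340076 to 128340166), TRR-TCT3-2 (chromosome 11, 59551294 to 59551379) and TRR-TCT4-1 (chromosome 1, 159141611 to 159141684) were present with FLAG-PUS7 throughout and never seen in the knockout. In mouse, the gene named Arg-TCT-4-1 encodes a tRNA made mainly in the nervous system. Here the row of its human namesake was detected in each FLAG-PUS7 library of both lines. Detection needs only 1 read, and reads of near-identical copies cannot be told apart, so this does not show that the gene is expressed there.

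In RefSeq, the 47 lysine and arginine tRNA genes outside Arg-TCT all span 73 bases, whereas 5 of the 6 Arg-TCT genes span 85 to 91 bases. The spans are 85 bases for TRR-TCT1-1, 88 for TRR-TCT2-1, 91 for TRR-TCT3-1, 86 for TRR-TCT3-2 and 87 for TRR-TCT5-1. TRR-TCT4-1 has 74 bases. The 5 longer genes were detected at 5, 5 and 5 in 293T FLAG-PUS7 libraries, against 2, 1 and 1 in the 293T knockout, and at 4 and 5 in H9 FLAG-PUS7 libraries, against 0 and 0 in the H9 knockout. The 48 genes of 73 or 74 bases were detected at 47, 47 and 47 in 293T FLAG-PUS7 libraries, against 27, 16 and 12 in the 293T knockout, and at 48 and 47 in H9 FLAG-PUS7 libraries, against 0 and 29 in the H9 knockout. Longer and shorter genes were therefore both recovered nearly in full with FLAG-PUS7. The second H9 knockout library held 0 of the 5 longer and 29 of the 48 shorter genes. TRR-TCT4-1, the Arg-TCT gene of 74 bases, was among the shorter genes missing there. Whether span bears on detection in the knockout was not tested. Whether the reads came from the precursor with its intron or from the spliced tRNA cannot be told from a detection per row.

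The libraries differed in how many rows they detected altogether, and with all libraries Arg-TCT was the only lysine or arginine family whose difference exceeded that of the other rows by more than 10 points. The excess, which was computed after the data had been seen, was 29.5 points over the rows of the other families (exact permutation p = 0.0167, adjusted p = 0.0528). For every such excess, the other rows leave out those with the name prefix nm or nmt. The Arg-TCT excess did not pass, and 0% of the 57 families did. When the first H9 knockout library was left out, it came to 39.5 points at an adjusted exact permutation p of 0.0396, and so passed along with 42.1% of the 57 families, 14 higher and 10 lower. When the first 293T knockout library was left out, it came to 29.6 points at an adjusted exact permutation p of 0.0452, along with 36.8% of the families, Arg-ACG with 13.4 points among them. With any other library left out it lay between 19.6 and 33.9 points, with adjusted exact permutation p-values from 0.05 to 0.302, none under the threshold. The excess of the 6 other families lay between -13.9 points for Arg-CCG and 6.49 points for Arg-ACG with all libraries.

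**Figure D3:**
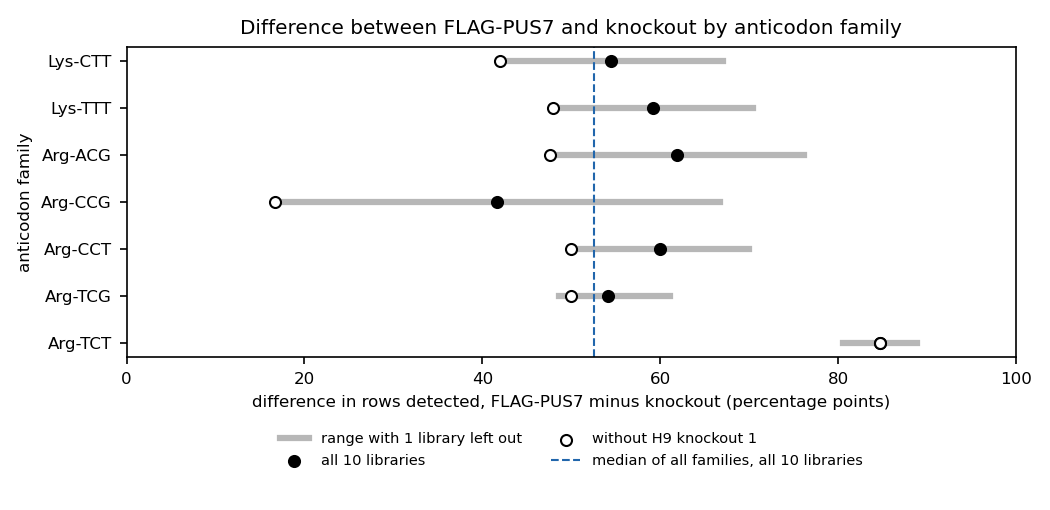
Difference in the share of rows detected, FLAG-PUS7 minus knockout in percentage points, for the 7 anticodon families, with the range when 1 library is left out (grey), the value without the first H9 knockout library (open circle) and the median of all 57 families (dashed). Arg-TCT lies at 84.7 points with and without that library, and Arg-CCG has the lowest value, 41.7 points, or 16.7 points without it.

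The other arginine families that read AGG or CGN had more of their rows in the knockout. Arg-CCT, which reads AGG, had all 5 rows in each of the 5 FLAG-PUS7 libraries, against 4, 2 and 3 in the 293T knockout and 0 and 2 in the H9 knockout. Its difference was 60 points (exact permutation test, adjusted p = 0.0221), and leaving out the first H9 knockout library gave 50 points. With the 4 rows matched to a tRNA gene alone it was also 50 points and no longer passed (exact permutation test, adjusted p = 0.0778). The unmatched Arg-CCT row was seen with FLAG-PUS7 throughout and never in the knockout, whereas TRR-CCT3-1 (chromosome 16, 3152900 to 3152972) and TRR-CCT4-1 (chromosome 7, 139340700 to 139340772) were in every library but the first H9 knockout.

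Arg-ACG, whose anticodon is edited to inosine so that it reads several CGN codons, had all 7 rows in each FLAG-PUS7 library, against 6, 2 and 2 in the 293T knockout and 0 and 4 in the H9 knockout. The groups did not overlap, as was also the case for the rows of all isotypes together. Families without overlap were not counted over all isotypes, where 78.9% of 57 families rose. The difference for Arg-ACG was 61.9 points (exact permutation test, adjusted p = 0.0221), and 47.6 points with the first H9 knockout library left out (adjusted exact permutation p = 0.0232). With the copies of one mature sequence counted as 1 it was 54.2 points and no longer passed (exact permutation test, adjusted p = 0.0792). By mature sequence, its copies had unlike counts in the knockout, not in the same direction in every library, and this was not tested. The 3 copies of ACG1 were detected at 2, 0 and 2 in the 293T knockout and at 0 and 0 in H9, while the 4 copies of ACG2 were detected at 4, 2 and 0 in the 293T knockout and at 0 and 4 in H9.

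Arg-CCG and Arg-TCG did not pass. All 4 Arg-CCG rows were in each FLAG-PUS7 library, against 4, 1 and 3 in the 293T knockout and 0 and 4 in the H9 knockout, so the groups overlapped. The share was 41.7 points higher with FLAG-PUS7 (adjusted exact permutation p = 0.211), and 16.7 points higher once the first H9 knockout library was left out (adjusted exact permutation p = 0.422). Arg-TCG rows were detected at 5, 6 and 5 of 6 in 293T FLAG-PUS7 libraries, against 5, 3 and 2 in the 293T knockout, and at 5 and 5 in H9 FLAG-PUS7 libraries, against 0 and 1 in the H9 knockout. Here the first 293T knockout library reached the level of 2 of its FLAG-PUS7 libraries. The share was 54.2 points higher with FLAG-PUS7 (adjusted exact permutation p = 0.0606). Leaving out the first H9 knockout library gave 50 points (adjusted exact permutation p = 0.0620). Leaving out the first 293T knockout library gave 61.1 points, which passed (adjusted exact permutation p = 0.0211). TRR-TCG1-1 (chromosome 15, 89335073 to 89335145) was in every library but the first H9 knockout, and the unmatched Arg-TCG row only in the second 293T FLAG-PUS7 library.

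Among lysine tRNAs, the 24 Lys-CTT rows read AAG and the 20 Lys-TTT rows read AAA and AAG. Lys-CTT rows were detected at 19, 19 and 18 in 293T FLAG-PUS7 libraries, against 8, 6 and 4 in the 293T knockout, and at 20 and 19 in H9 FLAG-PUS7 libraries, against 0 and 12 in the H9 knockout. The difference was 54.5 points (exact permutation test, adjusted p = 0.0221), and 42.0 points with the first H9 knockout library left out. Lys-TTT rows were detected at 15, 15 and 14 in 293T FLAG-PUS7 libraries, against 1, 2 and 0 in the 293T knockout, and at 14 and 15 in H9 FLAG-PUS7 libraries, against 0 and 9 in the H9 knockout. This difference was 59.2 points (exact permutation test, adjusted p = 0.0221), and 47.9 points with that same library left out. Neither family overlapped between FLAG-PUS7 and knockout libraries, as was also the case for the rows of all isotypes together. Families of all isotypes without overlap were not counted, but 78.9% of the 57 rose, so a lack of overlap does not set these 7 families apart. The calls of Lys-CTT, Lys-TTT and Arg-ACG were lost when either H9 FLAG-PUS7 library was left out (adjusted exact permutation p = 0.0576 with the first left out and 0.0594 with the second left out), and those of Arg-CCT and Arg-TCT were kept (adjusted p = 0.0413 for both).

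The lysine sequences with the most gene copies, CTT2 and TTT3, had unlike counts in the knockout. The 5 copies of CTT2 were detected at 5, 5 and 5 in 293T FLAG-PUS7 libraries, against 5, 4 and 2 in the 293T knockout. In H9 they were at 5 and 5 with FLAG-PUS7, against 0 and 5 in the knockout. The 5 copies of TTT3 were at 5 in each of the 5 FLAG-PUS7 libraries, against 0, 0 and 0 in the 293T knockout and 0 and 4 in the H9 knockout. The CTT2 copies are of text-width class 3 and the TTT3 copies of class 2, classes described below. Over all isotypes, the 293T knockout libraries detected 72.9%, 36.1% and 34.9% of class 3 rows and 18.5%, 14.6% and 8.46% of class 2 rows. The second H9 knockout library detected 66.9% and 33.1% of them. Whether CTT2 and TTT3 differ beyond their classes was not tested. TRK-CTT2-1 (chromosome 1, 146039401 to 146039473) was the only lysine row in every library but the first H9 knockout. In each of the 7 groups of copies, the level numbers of the copies were unequal in all 5 FLAG-PUS7 libraries, so the deposited tables did not give all copies of a sequence 1 shared value.

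Row by row, 12 of the 64 lysine and arginine rows detected in any library were in each FLAG-PUS7 and no knockout library, 18.8%, against 25% of the 513 such rows of all isotypes. They were TRR-TCT3-1, TRR-TCT3-2, TRR-TCT4-1, TRK-CTT3-1, TRK-CTT8-1, the pseudogene TRK-CTT12-1, TRK-TTT3-2, TRK-TTT4-1, TRK-TTT5-1 and TRK-TTT9-1, together with 1 unmatched Arg-CCT and 1 unmatched Lys-CTT row. At the other end, 4 rows were in all 5 FLAG-PUS7 libraries and in the 4 knockout libraries with any tRNA row, against 13.8% of the 513. These were TRK-CTT2-1, TRR-CCT3-1, TRR-CCT4-1 and TRR-TCG1-1. Every lysine or arginine row seen in the knockout was seen with FLAG-PUS7 too. Tested singly, 0 of the 64 rows passed, and 0% of the 513 did (exact permutation test, lowest adjusted p = 0.0668), with 12 of the 64 and 128 of the 513 at an unadjusted p under 0.05. The median difference per row was 70.8 points for lysine and arginine and 66.7 points for all rows, and 50 points for both with the first H9 knockout library left out.

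How often a row was seen in the knockout moved with its text-width class, numbered from 1 for the narrowest entry in the first H9 knockout table. Over all isotypes, the 4 other knockout libraries detected 0.403% to 1.21% of rows in class 1, 8.46% to 33.1% in class 2, 34.9% to 72.9% in class 3 and 66.3% to 96.5% in class 4. The 73 lysine and arginine rows fell into these classes as 21, 17, 31 and 4 rows. The 6 Arg-TCT genes lie in 3 classes. The class 1 genes TRR-TCT4-1 and TRR-TCT5-1 were in no knockout library, as were 42 of the 46 class 1 rows seen in every FLAG-PUS7 library. The class 4 gene TRR-TCT1-1 was in all 3 293T knockout libraries, but it and TRR-TCT2-1, also of class 4, were both missing from the second H9 knockout library, which held 76 of the 86 rows of class 4. The class 3 genes TRR-TCT3-1 and TRR-TCT3-2 were the only 2 of 31 lysine and arginine rows of that class in no knockout library, against 16 of the 135 other rows. What the width of a row's entry stands for is not stated, and its part in the family differences was not tested. The same classes were used to decide which levels were read as no reads. The simulated data took the width as that of a row's largest count. The rise with class is thus partly set by the reading itself and is not an independent result.

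**Figure D4:**
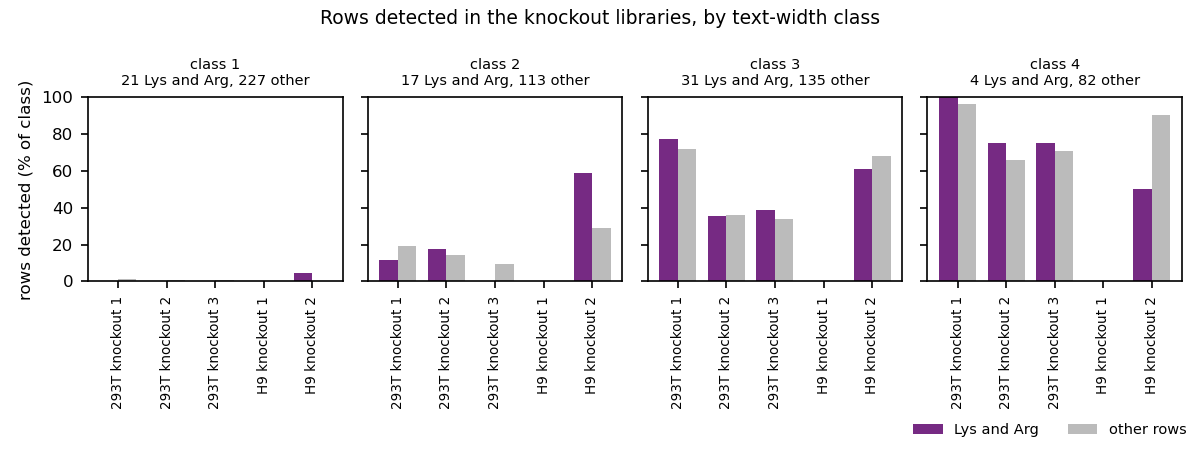
Share of rows detected (percent of the class) in each knockout library, by text-width class, for lysine and arginine rows (purple) and the other rows (grey). For the other rows the share rises from class 1 to class 4 in the 4 libraries with any row, and in class 2 the second H9 knockout library detected 58.8% of lysine and arginine rows and 29.2% of the others.

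In the comparison of H9 with 293T no lysine or arginine family passed the test. Of the 73 rows, 0 belonged to both FLAG-PUS7 libraries of H9 but none of 293T, against 0.792% of all 631 rows, and 0 belonged to all 3 of 293T but none of H9, against 0.475%. Such rows were thus rare in the whole table. The effect of FLAG-PUS7 in H9 minus that in 293T ranged from -18.3 points for Lys-TTT to 41.7 points for Arg-TCG, and was 40 points for Arg-CCT and 13.9 points for Arg-TCT. None of the 7 passed, and 0% of the 57 families did (exact permutation test, adjusted p = 1 for each of the 7, unadjusted p from 0.3 to 0.92, smallest possible 0.01). With the first H9 knockout library left out, the difference was -40.8 points for Lys-TTT, -33.3 for Arg-CCG, -21.5 for Lys-CTT, -9.52 for Arg-ACG, 13.9 for Arg-TCT, 20 for Arg-CCT and 33.3 for Arg-TCG. The sign thus turned for Arg-CCG, Lys-CTT and Arg-ACG, which were at 16.7, 3.47 and 19.0 points with all libraries. Arg-TCG lay between 27.8 and 52.8 points with 1 library left out. With the first 293T knockout library left out, Lys-CTT was at -0.694 points and Arg-ACG and Arg-CCG at 0, and Lys-TTT turned to 4.17 points with the second H9 knockout library left out. Arg-CCT lay between 20 and 60 points and Arg-TCT between 5.56 and 22.2 points with 1 library left out, where Arg-CCT was at 20 without the first and at 60 without the second H9 knockout library, and Arg-TCT was at 5.56 without the second and at 22.2 without the first H9 FLAG-PUS7 library.

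The second H9 knockout library held 21 lysine and 11 arginine rows, against 9, 8 and 4 lysine and 21, 9 and 11 arginine rows in the 293T knockout libraries. Of the lysine rows, 13 were in any 293T knockout library, 21 in the second H9 knockout library and 10 in both. The 11 lysine rows seen only in the H9 knockout comprised 7 Lys-TTT and 4 Lys-CTT rows. For arginine, 22 rows were in any 293T knockout library, 11 in the second H9 knockout library and 11 in both, so that 0 arginine rows were seen only in the H9 knockout. Among the 558 other rows the matching counts were 232, 200 and 177, with 23 only in the H9 knockout. These counts set 1 H9 library against 3 of 293T, and the difference between the lines in these rows was not tested.

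The genes lie in groups along the genome, given as RefSeq coordinates on GRCh38.p14. On chromosome 6, 17 of the 53 lysine and arginine tRNA genes lie between 26299677 and 28951101, among 132 tRNA genes of all isotypes. These 17 were detected at 17, 17 and 17 in 293T FLAG-PUS7 libraries, against 11, 5 and 2 in the 293T knockout, and at 16 and 17 in H9 FLAG-PUS7 libraries, against 0 and 8 in the H9 knockout. On chromosome 16, 7 genes between 3150674 and 3191573 were all detected in each FLAG-PUS7 library, against 3, 2 and 2 in the 293T knockout and 0 and 5 in the H9 knockout. On chromosome 17, TRR-CCT1-1, TRR-CCT2-1 and TRR-TCG3-1 lie between 75033906 and 75035185. These 3 were in each FLAG-PUS7 library, against 3, 1 and 2 in the 293T knockout and 0 and 0 in the H9 knockout. Recovery with FLAG-PUS7 was thus nearly complete in each cluster, as it was for all 53 genes (52 per library) and for the other tRNA genes (96.9% to 97.7%). Of all 53 genes, the 293T knockout libraries held 29, 17 and 13 and the H9 knockout libraries 0 and 29. Differences between clusters in the knockout counts were not tested.

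Peaks give a second view of the same FLAG-PUS7 libraries. The authors deposited a list of peaks for each, in bins of 200 bases on hg38 with a signal and a p-value per peak, and none for a knockout library, so no peak can be set against the pull-down background. A peak overlapped 14 of the 53 lysine and arginine tRNA genes in at least 1 list, against 26.9% of 443 RefSeq tRNA genes. The strands of peak and gene were not compared, so an overlap may lie on the opposite strand. In single lists, 7, 4 and 3 genes had a peak in 293T, against 11.3%, 9.26% and 4.06% of the 443, and 14 and 5 genes in H9, against 25.7% and 12.4%. Detection reached 52 genes in every one of these libraries, so most detected genes had no peak. By family, 6 of 14 Lys-CTT genes, 1 of 13 Lys-TTT, 3 of 7 Arg-ACG, 1 of 4 Arg-CCG, 1 of 4 Arg-CCT, 2 of 6 Arg-TCT and 0 of 5 Arg-TCG genes had a peak.

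TRK-CTT2-2, TRK-CTT2-4 and TRR-ACG1-1 had a peak in all 5 lists, against 4.06% of the 443 genes. At TRK-CTT2-2 (chromosome 5, 181207755 to 181207827) the authors' signal was 107, 71 and 50 in the 293T FLAG-PUS7 lists, and 94 and 20 in the 2 H9 lists. At TRK-CTT2-4 (chromosome 6, 26556546 to 26556618) the 293T lists gave 17, 34 and 23 and the H9 lists 39 and 22. At TRR-ACG1-1 (chromosome 6, 26328140 to 26328212) the 293T lists gave 40, 46 and 29 and the H9 lists 50 and 19. Signals are not scaled for depth, so levels of different libraries cannot be compared. Within each list, though, TRK-CTT2-2 exceeded TRK-CTT2-4, a copy of the same mature sequence, in 4 of the 5 lists, the second H9 list being the exception at 20 against 22.

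Each of these peaks covered the gene in part. The bin overlapped 27 of 73 bases of TRK-CTT2-2, 18 of TRK-CTT2-4 and 12 of TRR-ACG1-1, on the side of higher coordinates, and its remainder lay beyond the gene. Of the 15 other tRNA genes with a peak in all 5 lists, 7 were covered in part and 8 in whole. A bin does not resolve where in its span the reads lay, within the gene or next to it.

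Peaks in at least 2 lists were found at 9 lysine and arginine genes, against 14.7% of the 443. Besides the 3 above, TRK-CTT2-1 had signals of 10 and 16 in the first and second 293T lists and 10 in the first H9 list. TRR-CCT3-1 had 12 in the first 293T and 13 in the first H9 list, and both TRK-TTT1-1 and TRR-TCT1-1 had 9 in the first 293T and 3 in the first H9 list. TRR-ACG1-3 had 4 and 8 in the H9 lists and none in 293T. TRR-TCT3-1 had 11 and 10 in the H9 lists and none in 293T. TRR-TCT3-1 was the only gene of the 11 in no knockout library that had a peak, compared with 11 of the 38 genes in 1 to 3 knockout libraries and 2 of the 4 genes in 4 knockout libraries. The 11 include all 5 lysine and arginine tRNA genes of text-width class 1. The same split was not made for all 443 genes and was not tested, so these counts are a description only. 

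**Figure D5:**
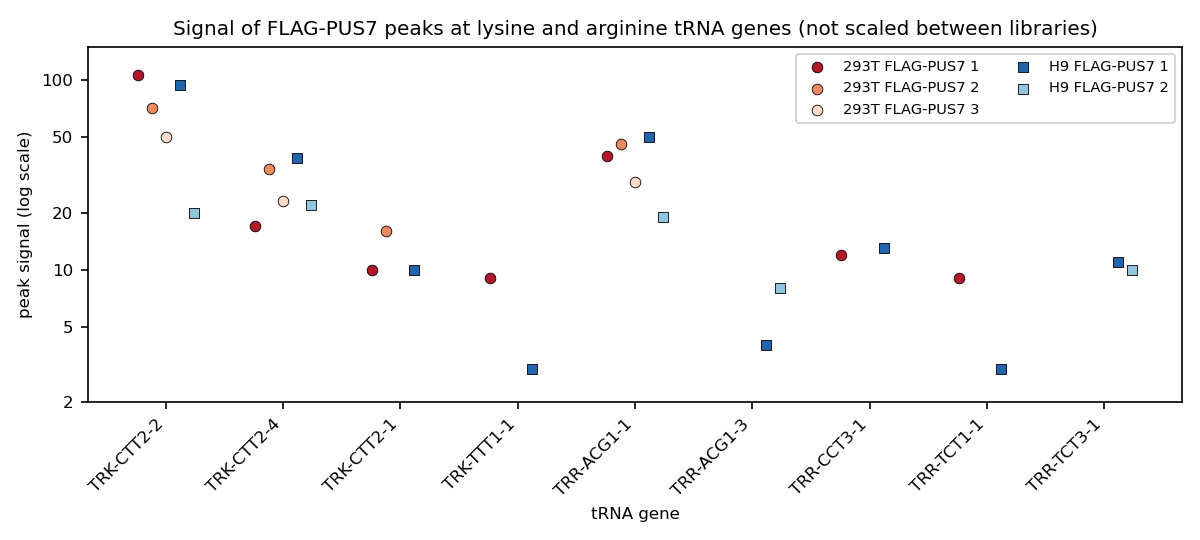
The authors' peak signal (log scale, not scaled between libraries) at the 9 lysine and arginine tRNA genes with a peak in at least 2 of the 5 FLAG-PUS7 lists, with circles for 293T and squares for H9. TRK-CTT2-2, TRK-CTT2-4 and TRR-ACG1-1 have all 5 points, and TRR-ACG1-3 and TRR-TCT3-1 have H9 points only.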

How the data were processed

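The tRNA tables and peak lists are the authors' deposited files. Per the submitters' processing notes, Bowtie, SAMtools and bedtools were used with hg38, without versions or roles. The aligner settings and the peak caller are not given in the sources used here. The deposited tRNA values were handled as a score: level numbers that occur without a gap and follow text order. The lowest run of levels, over which the text-width class rises, was read as no reads. The peak lists' signal and p-value are the authors' own, and depth is unknown. The members and lists were chosen with earlier results of these data known. Rows were matched by name to symbols in RefSeq GRCh38.p14, and peaks by an overlap of at least 1 base on either strand, since the gene annotation used gave no strand.

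Shares of rows detected were compared by exact permutation in Python 3.11.15 with NumPy 2.4.6 and pandas 2.3.3, with the Benjamini-Hochberg threshold at 0.05 over 57 families or 513 rows. The procedure was tested on simulated data coded by the rule that the reading assumes, so that test cannot show that the deposited levels follow the rule. All families were named. Single rows named by rule were those in all FLAG-PUS7 and no knockout library, in every knockout library with any row, in no library, or uneven across FLAG-PUS7 libraries, up to 30, and genes with a peak in at least 2 lists. Other single genes were chosen after their values were seen. Whether samples with the same replicate number were paired is not stated. Correlations of deviations between same-numbered libraries lay between -0.0358 and 0.045, which cannot settle it. Alternatives covered left-out libraries, a replicate block, weights, row sets, filters and peak rules. A motif search was not run.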

Additional observations from a re-analysis of the deposited data

How the results depend on the processing

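With 1 library left out the number of passing families ranged from 23 to 49 of all isotypes (45 with all libraries) and from 2 to 6 of lysine and arginine (5 with all), the lowest of each, 23 and 2, without either H9 FLAG-PUS7 library. With the replicate block, where labels were swapped only between same-numbered libraries, 0 families of either kind passed (exact permutation test, adjusted p = 0.0810 for Arg-ACG, Arg-CCT, Arg-TCT, Lys-CTT and Lys-TTT), and none could, since the smallest p is 0.0625. In 293T alone and in H9 alone 0 passed, for the same reason. Relative to the other rows, an alternative chosen after seeing the data, 0 passed, and with the first H9 knockout library also left out 24 families of all isotypes and 1 of lysine and arginine, Arg-TCT, did. Relative to the other rows the sign turned for Arg-CCG (-13.9 points, or -29.2 without that library), Lys-CTT (-1.02 and -3.80) and Arg-TCG (-1.34, but 4.38 without that library). These are differences from the other rows, not reversals of detection. Tests of single rows and of the difference between lines passed 0 under every alternative run on them. Genes with a peak numbered 14, but 9 with the gene wholly inside the peak, 9 at the authors' p of at most 0.001, and 9 to 14 with 1 library left out, 9 being without the first H9 FLAG-PUS7 library. Unknown depth limits every statement on rows not detected.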
